A study of Mus musculus with 4 samples.

Results

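The comparison described here set dendritic cells kept with SEA alone against the same kind of cells kept in media, with 1 array for each. Its members were all probe sets that carried exactly 1 gene symbol, were no array control and had a signal above 33.3 on at least 1 of those arrays. That left 13452 of the 22690 probe sets on the array, naming 8949 genes. The signal of 33.3 served as a floor: lower signals were set to it before log2 was taken, and each value below is log2 SEA minus log2 media unless stated. A member at the floor on 1 array has a bound, written as at least N-fold. On the media array 889 members lay at the floor, on the SEA array 788, and 11775 lay above it on both.

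The cells were mouse CD11c+ dendritic cells of IL10-/- genotype, held for 6 h in media or with SEA. A pair of further arrays of the same genotype and time held cells with LPS and with SEA and LPS together (SEA/LPS), and all 4 arrays carry the same lot. The labels do not expand SEA and give no strain, age, tissue, dose or separate cultures, so the number of animals or cultures behind an array is not known here. With 1 array per group there was no test, no spread between replicates and no p-value, and every difference is a description of these arrays. All groups lack IL-10, so no value shows what SEA does in cells able to make it.

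Dendritic cells take up antigen, carry it to lymph nodes and prime T cells. Microbial products such as LPS, which is sensed through TLR4 with the co-receptor CD14, switch on inflammatory cytokine, chemokine and costimulatory genes in them, largely through NF-kappaB and a secondary interferon response. IL-10 is an inhibitory cytokine that dampens this programme. Immediate early genes such as Egr1 answer mitogen-activated protein kinase signals before most other genes do.

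All 8 dendritic cell markers lay above the floor, with a summed signal of 18105.1 in media and 19177.6 with SEA. The largest parts of that sum were Cd74 (8639.1 and 9809.5) and H2-Ab1 (5558.0 and 6114.1). By difference, 3 of the 8 lay above 0 and 5 below, with a list median of -0.26. Zbtb46 (88.9 and 77.9), Flt3 (62.2 and 48.7) and Cd209a (49.8 and 36.3) were dim, below the neutrophil marker Ngp (103.1 and 100.7). Itgax, which encodes CD11c, read 2731.7 in media and 2180.8 with SEA. The 4 macrophage markers were also all above the floor, with sums of 7376.1 and 7262.3, led by Csf1r at 5629.6 and 5705.8. None of the 4 T cell markers on the array passed the floor, and their summed signal was 30.9 in media and 58.0 with SEA. The sums of the other lists were low on both arrays: neutrophil 295.9 and 344.2 with 4 of 6 markers above the floor, B cell 102.1 and 118.8 with 2 of 4, NK cell 120.1 and 81.7 with 2 of 4, mast cell and basophil 157.5 and 104.9 with 2 of 5. Eosinophil markers summed to 100.1 and 106.1 with 2 of 3 above the floor, erythroid to 19.1 and 47.4 with 1 of 2, plasmacytoid dendritic cell to 338.9 and 381.4 with 3 of 3, and fibroblast to 145.9 and 232.9 with 2 of 5. In RNA from a whole sample, fewer cells of a type and less RNA per cell cannot be told apart.

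Most genes read nearly the same with SEA as in media. The median difference over the members was 0.00, the quartiles were -0.22 and 0.22, and the 2.5 and 97.5 percentiles were -0.76 and 0.75. Of all members, 89.2% lay within 1.5-fold. At 2-fold, 96 probe sets were higher with SEA (0.714% of members) and 125 were lower (0.929%). At 1.5-fold the counts were 733 higher (5.45%) and 726 lower (5.4%). The higher probe sets made up 43.4% of those past 2-fold as deposited and 32.5% when the arrays were scaled to their hybridisation controls instead, which gave 106 higher and 220 lower and moved the median of all members to -0.08. On the same members, LPS over media, which shares the media array, had 799 higher and 1195 lower. Members had to pass the floor in media or with SEA, so probe sets above it only with LPS are not counted.

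**Figure D1:**
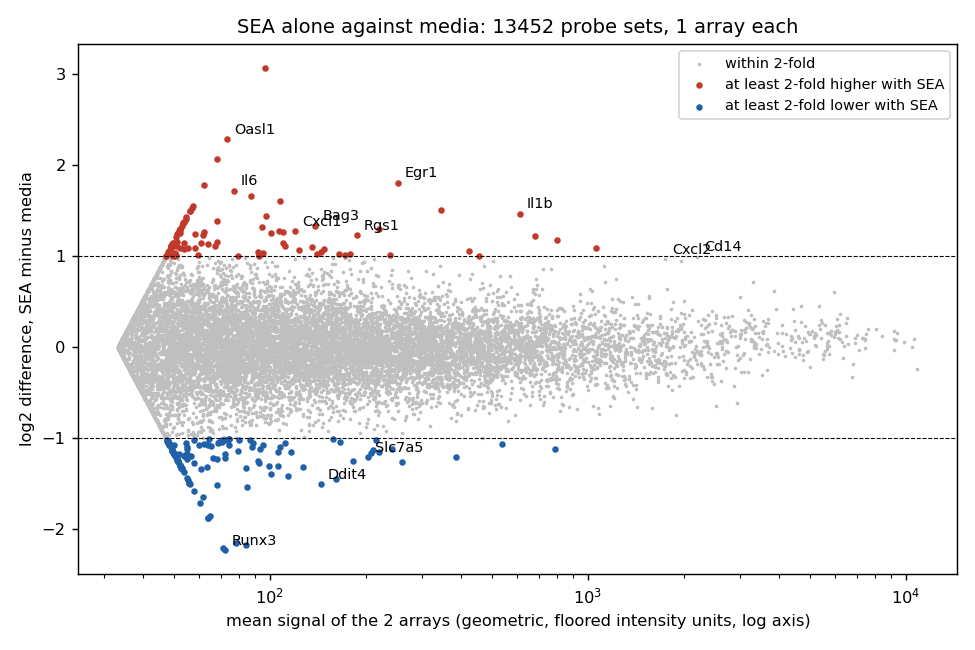
Log2 difference between the SEA and media arrays (vertical) against the mean signal of both (horizontal, log axis), 1 point per member probe set, with red for 96 at least 2-fold higher, blue for 125 at least 2-fold lower and dashed lines at 2-fold. Most coloured points lie at low signal, and Il1b (1.47) and Egr1 (1.81) stand above most probe sets of like signal.

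The size of a difference depended on brightness. Members above the floor on both arrays were put in 10 equal bins of mean signal, and the spread of each bin was taken as its scaled median absolute deviation. That spread was at most 0.42 log2, in the second dimmest bin, and 0.23 in the brightest. In the dimmest bin, with mean signals from 33.6 to 49.4, the floor itself limits how far the arrays can differ. Of the 96 higher probe sets, 54 had a brighter-array signal under 100 and 10 reached 300. Of the 125 lower, 70 were under 100 and 10 reached 300. A bound stood in for the value in 38 of the higher and 52 of the lower. A deviation, the distance from the bin's median in units of that spread, was at least 3 in 66 members and at most -3 in 62. At the edge of membership, Abcc3 (25.5 in media, 33.4 with SEA) was the kind of probe set just inside, and Lrp4 (23.9 and 33.3) the kind just outside.

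**Figure D2:**
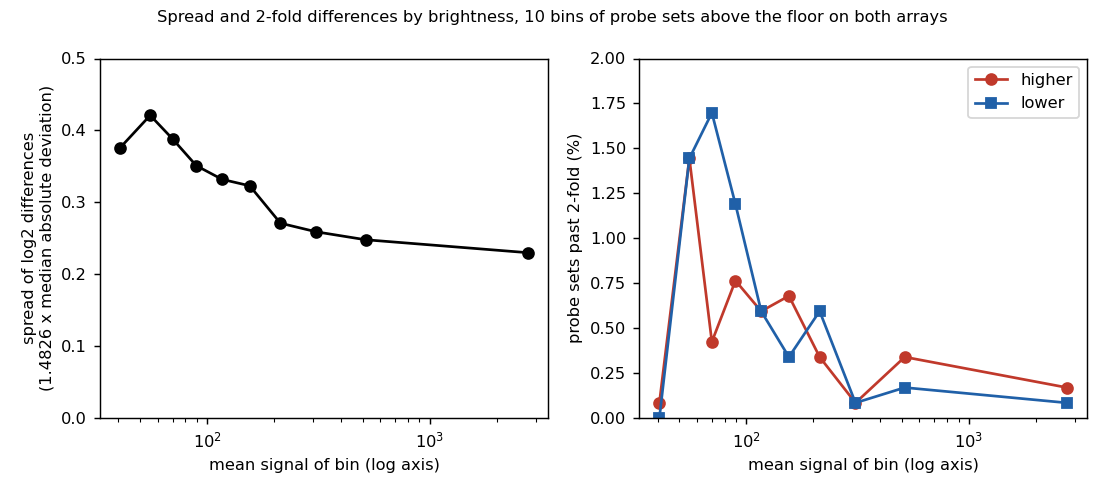
Left, the spread of log2 differences in each of 10 brightness bins, as the scaled median absolute deviation; right, the percentage of each bin at least 2-fold higher (red) or lower (blue), both against signal on a log axis. The spread goes from about 0.42 in a dim bin to 0.23 in the brightest. The 2-fold differences are most frequent in dim bins other than the dimmest, where the floor limits the size of a difference.

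Among genes counted once, by their brightest probe set, 62 of 8949 were at least 2-fold higher with SEA (0.693%) and 59 were at least 2-fold lower (0.659%). In the 14 measured pro-inflammatory cytokines, 2 were higher and 0 lower, and the list median was 0.07 beside 0.01 for all genes. The higher pair was Il6 and Il1b, both inducers of fever and of the acute phase response. Il6 read 42.3 in media and 139.5 with SEA, a difference of 1.72 or 3.30-fold. Il1b read 366.7 and 1016.2, a difference of 1.47 or 2.77-fold, with a deviation of 5.98. With LPS the signal of Il6 was 5389.0 and that of Il1b was 7411.5, so for both genes the SEA array lay between media and LPS and far nearer to media.

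The next cytokines fell just short of 2-fold. Il15, a growth factor for NK and memory T cells, read 34.8 and 68.6 (0.98), and Tnf read 43.6 and 81.3 (0.90), with all of these signals close to the floor. Of the other 10 measured cytokines, the 7 above the floor on both arrays lay between -0.35 (Tnfsf9) and 0.26 (Il1f9). Il12b, Csf3 and Ifnb1 were under the floor on 1 array, and Csf3 read 21.6 in media and 36.1 with SEA. Il12b, which encodes the p40 chain of IL-12, read 30.8 in media and 34.7 with SEA, against 1826.7 with LPS. Il12a read 36.2 and 35.6, and Ebi3, the partner subunit of IL-27 and IL-35, read 415.0 and 434.6. These subunits help set the course of T cell responses, and their signals on the SEA array were close to those in media, with Il12b and Il12a at or near the floor on both.

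Of 14 measured chemokines, 1 was at least 2-fold higher, 0 were lower and the median was 0.12. Cxcl1, which attracts neutrophils through CXCR2, read 77.2 in media and 186.7 with SEA (1.27, 2.42-fold). Cxcl2, a ligand of the same receptor, read 1247.4 and 2436.5 (0.97), and its deviation of 4.11 was larger than the 3.89 of Cxcl1. Ccl8 read 59.7 and 104.7 (0.81). The remaining 11 chemokines lay between -0.11 and 0.29. They include Ccl17 and Ccl22, ligands of CCR4 that are typical of dendritic cells, with 7229.5 and 7668.3 for Ccl17 and 1993.1 and 2234.2 for Ccl22. Cxcl10, an interferon-responsive chemokine, read 178.6 and 181.6, against 6830.2 with LPS.

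**Figure D3:**
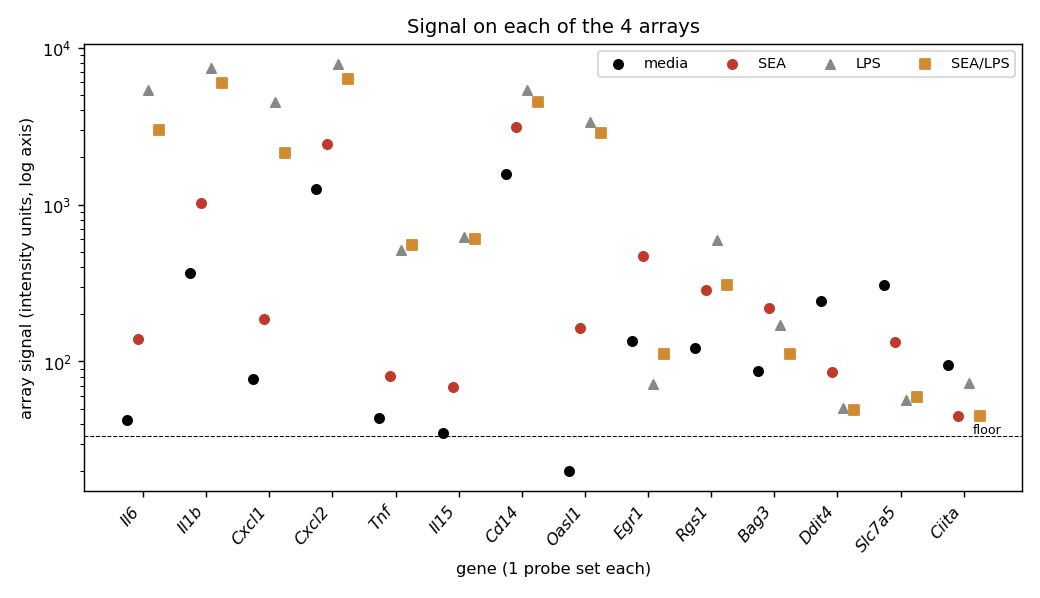
Signal of 14 genes (horizontal, 1 probe set each) on the media, SEA, LPS and SEA/LPS arrays (vertical, intensity units, log axis), with the floor of 33.3 dashed. For Il6, Il1b, Cxcl1, Cxcl2, Tnf, Il15, Cd14 and Oasl1 the SEA point lies above media and below LPS, and Egr1 is highest on the SEA array.

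The promoters of these cytokine and chemokine genes are shown because NF-kappaB binding near the start site is textbook knowledge for them. Each line gives the 120 bases before the RefSeq start, 5′ to 3′ on the gene's strand in mouse build GRCm38.p6, and capitals mark a match to the NF-kappaB motif (GGG, then NNTNN, then CC, with N any base) on either strand. Il6 lies at chr5:30012994-30013113 (plus strand), Cxcl1 at chr5:90891125-90891244 (plus), Cxcl2 at chr5:90903779-90903898 (plus) and Il1b at chr2:129371140-129371259 (minus).
Il6: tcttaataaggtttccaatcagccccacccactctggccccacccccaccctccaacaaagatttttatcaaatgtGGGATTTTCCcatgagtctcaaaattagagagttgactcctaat
Cxcl1: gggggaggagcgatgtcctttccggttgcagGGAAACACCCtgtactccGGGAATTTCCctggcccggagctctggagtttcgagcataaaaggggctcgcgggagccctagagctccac
Cxcl2: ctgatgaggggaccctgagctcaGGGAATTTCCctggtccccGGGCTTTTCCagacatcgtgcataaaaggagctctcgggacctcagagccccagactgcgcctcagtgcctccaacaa
Il1b: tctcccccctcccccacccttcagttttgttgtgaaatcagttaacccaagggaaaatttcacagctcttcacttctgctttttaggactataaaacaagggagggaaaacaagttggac

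Il6 had 1 match, at bases -44 to -35 from the start, Cxcl1 had 2 (-89 to -80 and -71 to -62), Cxcl2 had 2 (-97 to -88 and -78 to -69), and these letters are not in the Il1b window. Over windows of 250 bases before to 50 after the start, the NF-kappaB letters occurred in 16 of the 50 higher genes with a promoter entry (32.0%), in 8 of the 48 lower genes (16.67%) and in 26.98% of all 7282 member genes with an entry. For AP-1 (TGANTCA) the shares were 8.0% of the higher, 4.17% of the lower and 7.0% of all. The shares were 2.0%, 4.17% and 3.34% for the cyclic AMP response element (TGACGTCA), and 4.0%, 2.08% and 1.65% for the CArG box that serum response factor binds. The interferon-stimulated response element (TTTC, then NN, then TTTC) was in 0 of the 50 higher genes, 4.17% of the lower and 3.97% of all. For the heat shock element that HSF1 binds the shares were 0, 4.17% and 0.6%. Each share of 4.17% stands for 2 of the 48 lower genes. A match is a description of letters and not a bound site.

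Receptors and adaptors on the way to these genes held no 2-fold difference on the brightest probe set of each gene. In the list of Toll-like receptors and adaptors, 0 of 14 measured genes passed 2-fold and the median was 0.19. Cd14 came nearest, with 1559.4 in media and 3111.9 with SEA, a 1.996-fold difference with a deviation of 4.24, and its signal with LPS was 5401.1. Tlr4 read 195.4 and 268.3 (0.46). Among chemokine and migration receptors, 0 of 7 passed 2-fold. A dimmer probe set of Ccr2 read 93.6 and 33.2, at least 2.81-fold lower, while its others differed by -0.20 (the brightest) and 0.42. Ccr1, a receptor for inflammatory CC chemokines, read 946.0 and 1589.9 (0.75), and its other probe set differed by 0.64. Unlike the cytokines, Ccr1 read lower with LPS (765.3) than in media. The C-type lectin receptors and their Syk pathway had 0 of 14 past 2-fold, a median of -0.01 and a range from -0.46 (Cd209a) to 0.35 (Clec4d). Clec7a, the beta-glucan receptor Dectin-1, read 2389.6 and 3023.5.

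Feedback regulators of inflammatory signalling gave mixed readings. None of 21 measured NF-kappaB targets and regulators passed 2-fold, and the median was -0.06. Nfkbiz, which encodes the inducible cofactor of secondary NF-kappaB genes, read 51.9 and 93.4 (0.85). Relb read 474.7 and 301.9 (-0.65) and Nfkbib, an inhibitor of NF-kappaB, 528.9 and 333.5 (-0.67). Of 13 SOCS and cytokine feedback genes, 0 passed 2-fold. Socs3, an inhibitor of IL-6 family signalling, read 538.8 and 975.5 (0.86) on its brightest probe set, but its other probe sets differed by -0.56 and -0.49, so they disagree in direction. Il1r2, the decoy receptor for IL-1, read 201.3 and 318.1 (0.66). Rgs1, a regulator of chemokine receptor signalling that is in no list, read 122.1 and 287.4 (1.24), and 595.5 with LPS.

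Egr1 had its highest signal on the SEA array, unlike the cytokines. Egr1, a zinc finger factor of the immediate early class, read 134.7 in media and 472.5 with SEA (1.81, 3.51-fold), with the highest deviation of all members measured on both arrays, 6.75. Its signal was 72.0 with LPS and 112.0 with SEA/LPS, so the SEA array stood above the other 3. It was the only one of 21 immediate early factors past 2-fold, and the list median was 0.24. Nr4a1, an orphan nuclear receptor, read 48.6 and 92.7 (0.93). Egr2 read 442.1 and 577.9 (0.39) and Egr3 47.0 and 69.6 (0.57). Of the list, 13 lay above 0 and 8 below. Among the latter, Atf3 read 668.3 and 423.5 (-0.66). Jun read 896.3 and 580.1 (-0.63) on its brighter probe set and differed by -0.05 on the other. Among 10 MAP kinase phosphatases and Sprouty inhibitors, Dusp1 read 344.1 and 640.9 (0.90), Spry1 81.1 and 135.3 (0.74), Dusp6 142.9 and 222.7 (0.64) and Dusp2 66.8 and 43.1 (-0.63).

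Interferon-stimulated genes as a list read close to media, with 1 of 26 at least 2-fold higher, 0 lower and a median of 0.13. The exception was Oasl1, which encodes an inhibitor of Irf7 translation. Its signal was 20.1 in media, under the floor, and 162.3 with SEA, at least 4.87-fold higher, against 3336.3 with LPS. Iigp1, an interferon-inducible GTPase, read 52.4 and 95.1 (0.86), and Irf7, the factor that amplifies type I interferon, 78.8 and 137.5 (0.80). Ifi204 (18.2 and 55.2), Zbp1 (90.9 and 150.4) and Ifih1 (189.7 and 308.6) were the other members past 1.5-fold. Strong interferon targets in the same list were flat, with Ifit1 at 169.2 and 157.6, Mx1 at 120.5 and 124.0, and Rsad2 at 434.5 and 472.7. Ifnb1 itself read 37.3 in media and lay under the floor with SEA.

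Antigen presentation and maturation genes were near their media signals. In MHC class II presentation 1 of 11 genes was lower, 0 were higher and the median was 0.12, which turned to -0.04 under quantile normalization. That gene was Ciita, the master regulator of class II transcription, with 94.7 in media and 44.7 with SEA (-1.08), while its other probe set differed by -0.38. The call was lost with the floor at the 50th percentile (-0.91), as was that of Oxa1l named further on (-0.99). The genes of the class II chains, which it controls, read alike: H2-Aa had 5628.9 and 5483.0, H2-Ab1 5558.0 and 6114.1, and H2-Eb1 5564.1 and 5743.2. In MHC class I presentation, 0 of 13 genes passed 2-fold, but 11 of 13 lay below 0 and the median was -0.18. The lowest were Psme1 (505.5 and 359.0, -0.49), a proteasome activator subunit, and Psmb8 (1476.0 and 1163.0, -0.34) and Psmb10 (406.8 and 320.7, -0.34), catalytic subunits of the immunoproteasome. Over all genes, 48.3% lay below 0. Of 21 maturation and costimulation genes 0 passed 2-fold, with a median of -0.02. Tnfsf4, the OX40 ligand, read 95.6 and 142.2 (0.57), and Ccr7, the receptor that guides mature cells to lymph nodes, 295.5 and 238.1 (-0.31).

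Lists that describe T helper 2 priming, alternative activation and Notch held no 2-fold difference on the brightest probe set of each gene. The T helper 2 and alternative activation list had 0 of 23 genes past it (median 0.09). A dimmer probe set of Il4ra, a gene of that list, read 24.0 and 83.7, at least 2.51-fold higher. Its brightest differed by 0.42 and the remaining one by -0.21. Arg1, the arginase of alternatively activated myeloid cells, read 4873.9 and 6017.1 (0.30). Of 16 Notch pathway genes 0 passed 2-fold (median 0.13), and the largest differences were Dtx1 at 0.77 and the ligand Dll1 at -0.55. Il10 had a signal of 37.9 in media and 52.1 with SEA, against 303.6 with LPS. Whether its probe set lies in the deleted stretch of the gene is not known here, so it checks nothing about the genotype. Skil, an inhibitor of TGF-beta signalling, read 361.2 and 698.9 (0.95) on its brighter probe set and differed by -0.45 on the other.

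**Figure D4:**
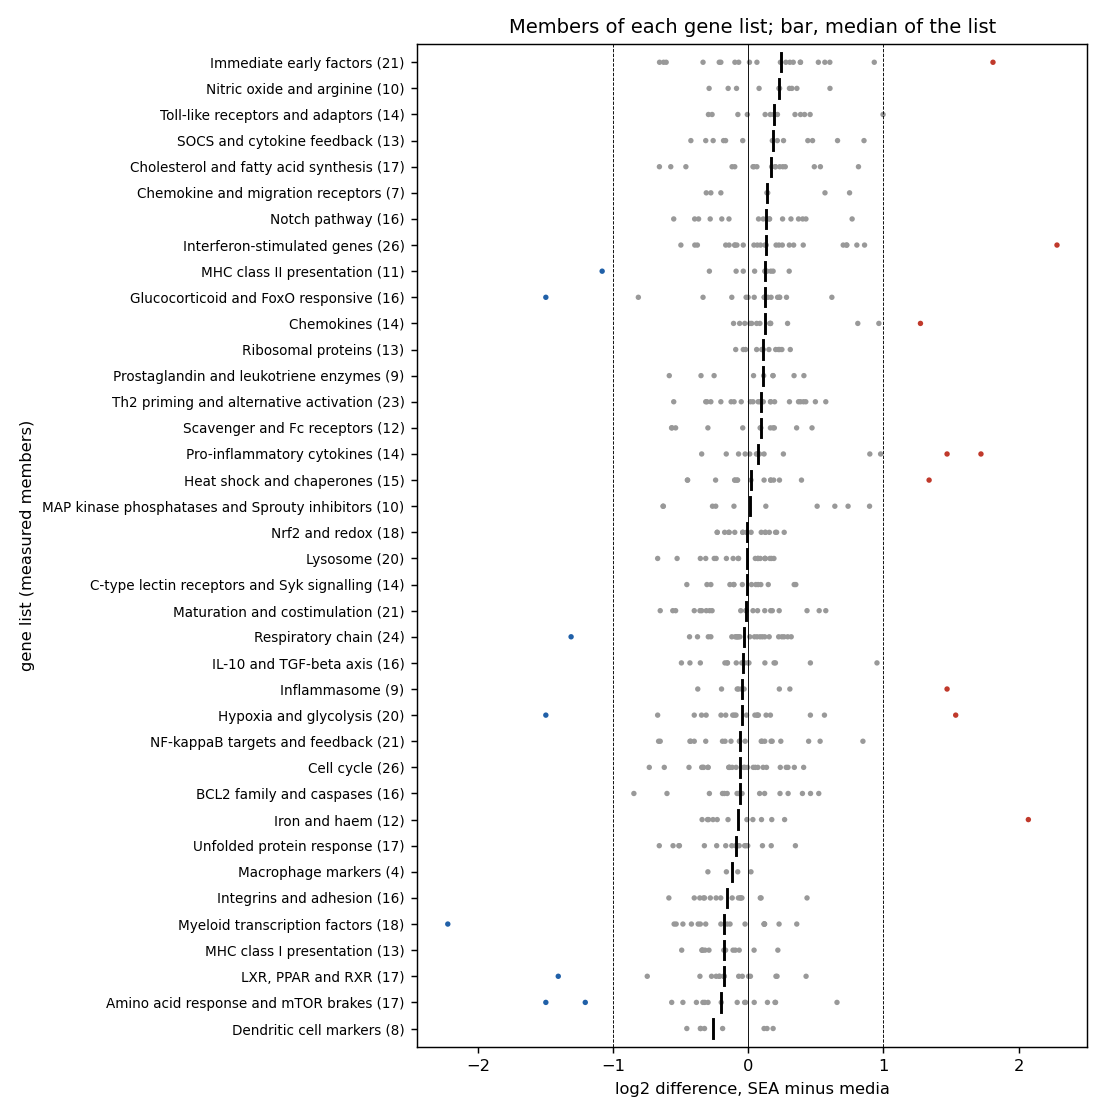
Log2 difference between SEA and media (horizontal) for each measured member of 38 gene lists (rows, number measured in parentheses), sorted by list median (black bar), with red and blue for members past 2-fold. All medians lie within 0.3 of 0, and single members such as Oasl1, Il6 and Runx3 lie far from the rest of their lists.

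Of the lists with a lower member, the amino acid response and mTOR brakes held the most. In it 2 of 17 were at least 2-fold lower, 0 were higher, 12 lay below 0 and the median was -0.20. Over all genes, 0.659% were at least 2-fold lower and 48.3% lay below 0. Ddit4, also called REDD1, which restrains mTOR complex 1 and is induced by glucocorticoids, hypoxia and stress, read 242.6 in media and 85.8 with SEA (-1.50, 2.83-fold lower). Slc7a5, the light chain of the LAT1 transporter of large neutral amino acids, read 308.1 and 133.4 (-1.21). With LPS they read 50.5 and 57.1, so both had a SEA signal between media and LPS, as the cytokines had on the other side. Slc3a2, the heavy chain that pairs with Slc7a5, read 3024.8 and 2855.4. Phgdh, the first enzyme of serine synthesis, read 140.3 and 221.1 (0.66), and its probe sets disagree in direction. On 1 probe set Asns, which encodes asparagine synthetase, read 90.3 and 27.9, at least 2.71-fold lower, and its other differed by -0.3.

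Related stress lists held values on both sides of 0. Of 17 unfolded protein response genes 0 passed 2-fold, 14 lay below 0 and the median was -0.09, with Pdia4 at 104.3 and 66.0 (-0.66, but 0.19 on its other probe set) and Ddit3, the CHOP factor, at 99.4 and 67.5 (-0.56). In the glucocorticoid and FoxO list Per1, a clock gene induced by glucocorticoids, read 128.1 and 72.8 (-0.81), but Sgk1, a kinase of the same list, read 831.1 and 1275.1 (0.62), and the median of its 16 members was 0.12. In hypoxia and glycolysis 1 of 20 was higher and 1 lower. Stc1, the hormone stanniocalcin, lay at the floor in media and read 96.5 with SEA (at least 2.90-fold higher, but under 2-fold with the floor at the 50th percentile), Hif1a read 1283.7 and 1896.6 (0.56) on its brightest probe set but 0.32, -0.30 and -0.14 on the others, and Slc16a3, a lactate exporter, 650.9 and 408.4 (-0.67). Of 16 BCL2 family and caspase genes 0 passed 2-fold, and Pmaip1, the pro-apoptotic NOXA, read 101.5 and 56.4 (-0.85).

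Bag3 stood apart from the other measured members of the heat shock and chaperone list. It is a co-chaperone of Hsp70 in selective autophagy, and it read 87.2 in media and 220.4 with SEA (1.34). On the LPS and SEA/LPS arrays it read 170.5 and 111.3. Of the other 14 measured members of the heat shock list, the 12 above the floor on both arrays lay between -0.45 (Hspd1) and 0.39 (Dnajb4). Cryab (45.5 and 24.6) and Hspa1a (35.3 and 31.9) were under the floor with SEA. Outside the list, Hspa14 read 100.2 and 207.9 (1.05), and Fkbp4 read 82.8 and 26.7, at least 2.49-fold lower. The promoters of Bag3 and Ddit4 are shown as those of 2 single genes that leave their lists, again as the 120 bases before the start in GRCm38.p6, with the AP-1 match in capitals for Bag3 (bases -20 to -14) and the NF-kappaB match for Ddit4 (-117 to -108). Bag3 lies at chr7:128523463-128523582 on the plus strand and Ddit4 at chr10:59951771-59951890 on the minus strand.
Bag3: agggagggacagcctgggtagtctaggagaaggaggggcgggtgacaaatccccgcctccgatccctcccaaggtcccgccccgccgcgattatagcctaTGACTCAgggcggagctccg
Ddit4: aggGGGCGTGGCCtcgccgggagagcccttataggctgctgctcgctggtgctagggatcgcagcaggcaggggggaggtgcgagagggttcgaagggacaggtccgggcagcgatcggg

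Transcription factors of the myeloid lineage and nuclear receptors gave 2 single low values. Runx3, a Runt factor, read 155.8 in media and 25.4 with SEA, and 174.8 and 122.1 on the LPS and SEA/LPS arrays. It was at least 4.68-fold lower with SEA than in media, the only one of 18 myeloid factors past 2-fold, and the SEA array alone was under the floor. Rxrb, a retinoid X receptor that pairs with many nuclear receptors, read 185.5 and 69.9 (-1.41), and it was the only one of 17 genes of the LXR, PPAR and RXR list past 2-fold. Abca1, an LXR target that exports cholesterol, read 1057.3 and 1421.2 (0.43), and differed by -0.12 on its other probe set.

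Lists of housekeeping kind and the adhesion list held at most 1 gene past 2-fold on its brightest probe set. Ribosomal protein genes had 0 of 13 past 2-fold, 10 above 0 and a median of 0.11. A dimmer probe set of Rps10 read 446.1 and 1045.2 (1.23), while its others differed by 0.15 to 0.24. Respiratory chain genes had 1 of 24 lower, Oxa1l (99.9 and 40.2, -1.31, but 0.13 on its other probe set), an inner membrane insertase, and a median of -0.03. Cell cycle genes had 0 of 26 past 2-fold, and lysosomal genes 0 of 20. Integrins and adhesion genes had 0 of 16 past 2-fold, 13 below 0 and a median of -0.16. A dimmer probe set of Itga5 read 99.6 and 28.9, at least 2.99-fold lower, and its brighter one differed by -0.28. In the iron and haem list, Ciapin1 was at least 4.21-fold higher, as described below, and 0 of 12 were lower. Of the 36 lists other than cell type markers, 8 held a gene that was higher, 7 held one that was lower and 22 held neither. Over all lists 554 genes were measured, of which 8 were higher and 6 lower. Of all 8949 genes, 0.693% were higher and 0.659% lower.

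Beyond the lists, the largest differences often rested on 1 probe set among several. Ptdss2, a phosphatidylserine synthase, had the highest value of all members, 25.5 in media and 279.5 with SEA (at least 8.39-fold), but its brightest probe set differed by -0.29. Csnk1d, a casein kinase of the circadian clock, read 179.3 and 39.7 (-2.18), and its brightest probe set differed by 0.20. Fam120a read 164.4 and 37.2 (-2.14) and -0.28 on its brightest. In genes with several probe sets, each called one was set against the mean of the gene's others. That mean lay on the same side of 0 for 30 of 43 higher probe sets (69.8%) and 51 of 80 lower (63.7%). The shares were 53.0% for all such members above 0 and 54.4% for all below 0. For called probe sets with a mean signal of at least 100 they were 11 of 17 higher (64.7%) and 8 of 14 lower (57.1%). These probe sets share the same arrays and are no replicates of the condition.

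Further large differences lay among probe sets of moderate or high signal. Tuba1a, an alpha tubulin, read 532.5 and 1204.3 (1.18). Gsn read 724.6 and 1546.3 (1.09) on 1 probe set and 75.6 and 15.9 on another, at least 2.27-fold lower, so its probe sets disagree in direction. D8Ertd738e read 204.4 and 583.9 (1.51), and its other probe set differed by 0.21. Zmynd11, a reader of a histone H3 mark, read 140.2 and 345.2 (1.30), but its other probe sets differed by -0.77 and -0.43. On the lower side, Sec24b, a coat subunit of transport vesicles leaving the endoplasmic reticulum, read 402.4 and 167.6 (-1.26), with -0.22 on its other probe set, and Trim35, a ubiquitin ligase, 281.7 and 119.0 (-1.24). Tcl1b3, with the highest signal of the lower probe sets, read 1158.9 and 534.5 (-1.12). Mkrn1 read 586.2 and 253.7 (-1.21), though its brightest probe set differed by -0.17. Sirpa, the myeloid receptor for CD47, read 777.2 and 372.7 (-1.06), with other probe sets at -0.55 and -0.51.

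SEA/LPS over LPS is a second contrast of SEA present against absent that shares no array with SEA over media. Over 12367 members above the floor on 1 of those arrays, 211 were higher by 2-fold or more (1.71%) and 578 were lower (4.67%). Of the 87 SEA-higher probe sets measured there, 37 lay on the same side of 0 (42.5%), beside 48.5% of all members above 0, and their median was -0.13. Of the 102 SEA-lower, 69 lay on the same side (67.6%), beside 54.0% of all members below 0, and their median was -0.31. At 2-fold in both contrasts, 3 were higher, which is 3.4% of the 87 and 1.42% of the 211, while 9 of the 87 were 2-fold lower in the second contrast. Over all 6225 members above 0, 102 were 2-fold higher there and 226 were 2-fold lower. In the lower direction 16 were 2-fold in both, which is 15.7% of the 102 and 2.77% of the 578, and 1 of the 102 was 2-fold higher in the second contrast. Across probe sets, which are not independent, Pearson r between the contrasts was 0.06 over 11348 members and 0.11 over the 3021 with a mean signal of at least 300.

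The cytokines were not among those shared. With LPS present the difference was -0.86 for Il6 (2969.5 with SEA/LPS against 5389.0), -0.32 for Il1b (5953.1 against 7411.5) and -1.08 for Cxcl1 (2120.6 against 4491.1). Thus these genes had higher signals with SEA than in media, and lower signals with SEA/LPS than with LPS. Oasl1 differed by -0.22, Ddit4 by -0.04 and Slc7a5 by 0.06. Egr1 differed by 0.64, on the same side as without LPS.

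The 3 probe sets higher in both contrasts named Ciapin1, Fen1 and Ptdss2. Ciapin1, a factor of cytosolic iron-sulfur cluster assembly, read 33.3, 140.1, 49.7 and 239.7 on the media, SEA, LPS and SEA/LPS arrays, and its other probe set differed by -0.03 between SEA and media. Fen1, the flap endonuclease of DNA replication, read 320.8, 644.2, 76.3 and 426.8 on the same arrays, and its other probe set differed by 0.23 between SEA and media. The 16 lower in both named Adam10, Aldh4a1, Atp2a3, Atp6v1e1, Iffo1, Itga5, Mmp24, Nol6, Olfr870, Oxa1l, Pik3ap1, Polr3d, Sdc3, St3gal5, Trim35 and Wdr36. Their signals were modest: Sdc3, the syndecan-3 proteoglycan, had the highest media signal, with 311.5, 139.5, 371.5 and 179.4 in that order. Wdr36, a ribosome biogenesis factor, read 152.9, 14.2, 120.9 and 30.2. St3gal5, the sialyltransferase that makes ganglioside GM3, read 105.7, 52.6, 452.0 and 214.6, and its other probe set read 177.5, 111.5, 623.3 and 362.5. Of the 16 genes, 12 had other member probe sets, and 0 of those were 2-fold lower with SEA than in media. In 4 genes another probe set lay above 0, with 0.32 for Adam10 and for Atp6v1e1, each on its brightest probe set, 0.13 for Oxa1l and 0.57 for Wdr36.

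A sign of RNA quality moved with SEA in both contrasts. Gapdh had a 3' over 5' signal ratio of 2.21 in media and 2.69 with SEA, against 2.42 and 3.12 on the LPS and SEA/LPS arrays. The same ratio of Actb was 1.20, 1.37, 1.24 and 1.26 in that order. The median signal was 52.4, 53.2, 51.5 and 45.0 in the same order, and 14 of 18 hybridisation control probe sets were brighter with SEA than in media, by 0.09 log2 on average over the 18. Their part in the shared lower probe sets, or in any difference above, was not tested.

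**Figure D5:**
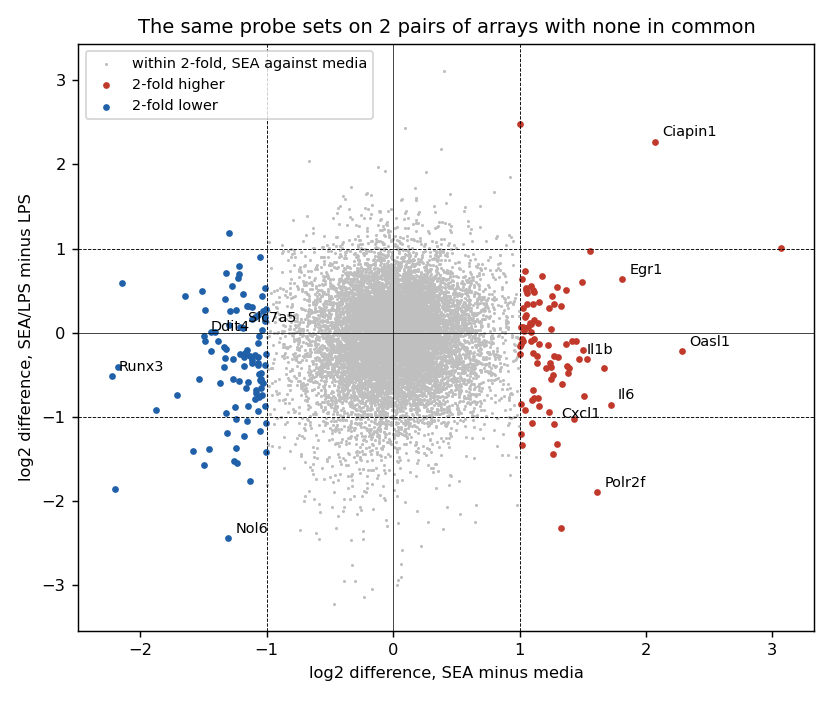
Log2 difference SEA/LPS minus LPS (vertical) against SEA minus media (horizontal) for 12367 member probe sets, with red and blue for those past 2-fold on the horizontal axis and dashed lines at 2-fold. Il6, Il1b and Cxcl1 lie to the right and below 0, and 16 blue points lie past both lines at the lower left.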

How the data were processed

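Total RNA of 4 samples was measured on 1 Affymetrix array each. The values are the deposited intensity values of the series, on a linear scale, with a 2% trimmed mean of 150.1 on every array, so the authors had scaled the arrays to a common mean. Which software and background step made them were not given in the sources used here. A common mean hides differences in total RNA and sets how many genes read as higher or lower. Scanner files were not analysed here.

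Of 22690 probe sets, 64 were controls, 20380 carried 1 symbol, 691 several and 1555 none, and 20351 matched the RefSeq gene table of GRCm38.p6, used for names. The floor of 33.3 was the 40th percentile of the 4 pooled columns. No further scaling was applied. Lists took 1 probe set per gene, the one with the highest mean over media and SEA. There were 36 lists and 11 cell type lists, which together name 704 genes. Promoter sequences are RefSeq's. Python 3.11.15, numpy 2.4.6 and pandas 2.3.3 were used, and the scripts were tested on simulated data.

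Named genes are Il10, the 15 highest and 15 lowest members measured on both arrays, the 8 brightest bounds on either side, the 10 highest and lowest deviations and up to 4 members of each list. The genes shared by both contrasts and those whose probe sets all differ alike were chosen after their values were seen. So were Sirpa, Hspa14, Fkbp4, Asns and the further list members printed beside those 4. The members and lists were chosen with earlier results of these data known.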

Additional observations from a re-analysis of the deposited data

Results flagged for a closer look

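Of the 87 SEA-higher probe sets measured with LPS, 9 were at least 2-fold higher with SEA than in media and lower by 2-fold or more on the SEA/LPS array than on the LPS array, and the difference between the contrasts was not tested. They named Cxcl1, Polr2f, Rtbdn, Il4ra, Cyp4f13, Spsb2, Lamb3, Rcor2 and Gckr, the last 5 chosen after their values were seen. Over all 6225 members above 0 without LPS, 226 were 2-fold lower on the SEA/LPS array than on the LPS array. Several of the 9 were dim in media and with SEA: Rcor2 (18.1 and 81.9), Gckr (33.0 and 89.6), Lamb3 (39.6 and 84.7) and Spsb2 (41.7 and 84.5). Cxcl1 was higher by 1.27 log2 without LPS and differed by -1.08 with it. Polr2f, an RNA polymerase subunit, was higher by 1.61 (61.3 and 187.5) and differed by -1.90 (213.1 with LPS, 57.0 with SEA/LPS), but its brighter probe set differed by 0.37 without LPS and 0.14 with it. Rtbdn was higher by 1.26 and differed by -1.45. A probe set of Il4ra, the IL-4 receptor chain, was higher by 1.33, from under the floor in media to 83.7, and was at 166.8 with LPS and under the floor with SEA/LPS. The other Il4ra probe sets differed by 0.42 and -0.21 without LPS.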

How the results depend on the processing

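With 1 array per group nothing here has a replicate check. No paired analysis was possible because each group holds 1 array. The 96 higher and 125 lower probe sets became 288 and 330 with the floor at the 30th percentile, 42 and 54 with it at the 50th, 189 and 216 with no floor and log2(signal + 16), 733 and 726 at 1.5-fold, 58 and 73 with both arrays required above the floor, and 62 and 59 with 1 probe set per gene. Scaling to the hybridisation controls gave 220 lower, and leaving out probe sets of the x, s and a types gave 55 higher. Scaling to the 75th percentile or the median and quantile normalization kept both counts within 1.5 times. List medians that changed sign were MHC class II presentation (-0.043 with quantile normalization), chemokine and migration receptors (-0.076 with hybridisation controls, -0.033 with the floor at the 30th and at the 50th percentile), and, with the floor at the 30th percentile, B cell markers (0.073) and eosinophil markers (0.23). With 1 probe set per gene the sign changed for Anp32a (0.25), Csnk1d (0.20), Ints5 (0.16), Marcksl1 (-0.02), Prdx2 (0.37), Ptdss2 (-0.29), Rhbdd3 (0.14), Samhd1 (-0.18), Slc6a9 (0.36), Trmt2a (0.23) and Txn2 (0.19), since another, brighter probe set was then read. Il6 ranged from 1.42 to 1.72 over 8 alternatives, Egr1 from 1.70 to 1.91 and Ddit4 from -1.58 to -1.34. Of 56 named probe sets past 2-fold, 45 stayed past it in the same direction under every alternative run on them other than 1 probe set per gene. With the floor at the 50th percentile 11 were under 2-fold: Ccr2 (-0.90), Ciita (-0.91), Gp2 (-0.94), Itga5 (-0.99), Mthfd1 (0.96), Oxa1l (-0.99), Pmepa1 (0.90), Polr3d (-0.90), Rbm39 (0.91), Rtbdn (0.93) and Stc1 (0.94). Ciita was also under it with no floor (-0.87).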

Other observations

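A second way to read the arrays is to ask which genes differ alike on every probe set they have. Of 3044 genes with at least 2 member probe sets, 12 were at least 1.5-fold higher with SEA on all of them, 13 were at least 1.5-fold lower on all, and 18 had all probe sets past 1.5-fold but in both directions. Of all member probe sets, 5.45% were 1.5-fold higher and 5.4% lower, which are shares of single probe sets and not of genes. The 18 genes whose probe sets disagreed thus stood beside 12 alike higher and 13 alike lower, and nothing beyond the values of the alike genes is drawn from them. These genes were chosen after their values were seen, and the probe sets of a gene share the arrays.

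The higher genes were Adk, Agbl5, Ccr1, Mettl6, Ms4a6d, Pde4b, Pmepa1, Rbm18, Smu1, Srr, Tacc3 and Tmprss2. Pde4b, the phosphodiesterase that degrades cyclic AMP in immune cells, read 136.3 in media and 238.5 with SEA on one probe set and 251.5 and 466.3 on the other, and 399.6 and 949.7 with LPS. Ms4a6d, a membrane protein of myeloid cells, read 42.6 and 65.8 on one and 59.1 and 118.0 on the other. The lower genes were Dusp7, Elavl1, Gtf2i, Iffo1, Ino80e, Med19, Nop56, Pdgfb, Retreg3, Rnf19b, Slc20a2, St3gal2 and St3gal5. Pdgfb, a growth factor chain, read 424.3 and 277.2 on its brighter probe set and 101.2 and 49.3 on the other. Dusp7, a phosphatase of ERK kinases, was lower on 3 probe sets, from 78.0 to 50.4, from 73.3 to 38.3 and from 68.5 to a signal under the floor. St3gal2 and St3gal5 are both sialyltransferases.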
